A study of Canis lupus familiaris with 6 samples.

Results

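Heat shock proteins and cytosolic chaperones were followed in CMM12 and CMM2, canine melanoma cell lines, each sequenced as podoplanin knockout (KO) lines KO 1 and KO 2 and as 1 control labelled wild type (WT). That gave 6 libraries of cultured cells, 1 per KO line and 1 per control. Podoplanin is a mucin-like membrane glycoprotein, and no other allele or agent is named for any group. The genes were chosen by symbol: HSPA, HSPB, HSP90A, HSPH1, DNAJA, DNAJB, DNAJC, BAG1 to BAG6, the CCT genes and TCP1, and HSF1 and HSF2, without HSPA5 and DNAJB9 of the endoplasmic reticulum (ER). Of the 30951 rows of the tables, 74 were members, and 62 of these were among the 12270 genes with enough counts to be tested. HSPD1, HSPE1, HSPA1A, HSPA1B and CCT7 were not analysed here, since no row carried those symbols. The symbols also take in proteins of other compartments. Among others, HSPA9, DNAJA3, DNAJC11 and DNAJC19 act in mitochondria, and HSPA13, DNAJB11, DNAJC1, DNAJC3 and DNAJC10 in the ER.

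Molecular chaperones bind unfolded or newly made proteins and keep them from aggregating. HSP70 proteins bind and release clients in a cycle driven by ATP, in which J proteins (DNAJA, DNAJB, DNAJC) start hydrolysis and HSP110 and BAG proteins speed the exchange of nucleotide. HSP90 matures kinases and steroid receptors, the ring-shaped TRiC/CCT complex folds actin and tubulin, small heat shock proteins (HSPB) hold unfolding proteins without ATP, and the heat shock factor HSF1 switches on many of these genes under stress.

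The libraries held 9732927 to 11807835 estimated counts. PDPN, the targeted gene, stood at 15.2 and 9.98 CPM (counts scaled to library totals adjusted by TMM) in the CMM12 KO libraries against 87.8 CPM in the control, and at 5.59 and 5.58 CPM in the CMM2 KO libraries against 20.2 CPM in the control. Whether libraries are separate cultures, and KO lines single clones, is not said in the labels; the p-values therefore reflect variation among these samples only, part of which may be technical. CMM2 KO 2 stood apart from its line: among genes with a mean of at least 10 CPM, 6.39% differed at least 2-fold from the control, against 0.889% for CMM2 KO 1. Of 8 genes of the melanocyte lineage, 5 stayed under 1 TPM (transcript abundance scaled for length within a library) in every library and DCT was at 0, while MITF stood at 10.7 to 21.7 TPM. The leukocyte markers PTPRC and CD3E were at 0. A list of 4 fibroblast genes summed to 22.1 to 40.1 TPM in the CMM12 KO libraries against 202 TPM in the control, and to 416 to 558 TPM in the CMM2 KO libraries against 249 TPM in the control. COL1A1 made up most of the sum in every library but the CMM12 KO ones, with 1.33 and 19.3 TPM in CMM12 KO against 177 TPM in the control, and 391 and 520 TPM in CMM2 KO against 229 TPM in the control. PDGFRA of the same list had 11.5 and 20.8 TPM in CMM12 KO against 10.2 TPM in the control. The sum of 3 listed epithelial genes was 1.28 to 1.71 TPM in the CMM12 KO libraries and 15.1 TPM in the control, and 0 in every CMM2 library. The part of these differences in the chaperone values was not tested, and in bulk RNA fewer cells of a type cannot be told apart from less RNA per cell.

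As levels per transcript length, HSPA8, the constitutive cytosolic HSP70, led the members with 3267 ± 382 TPM in CMM12 and 2416 ± 688 TPM in CMM2 (SD, n = 3 libraries per line, KO and control together). HSP90AA1, the stress-responsive cytosolic HSP90, had 2876 ± 329 TPM in CMM12 and 1864 ± 534 TPM in CMM2. HSP90AB1, the constitutive HSP90, had 1706 ± 465 TPM in CMM12 and 1463 ± 185 TPM in CMM2. The order of HSPA8, HSP90AA1 and HSP90AB1 by mean TPM was the same in the lines. HSPA8 and HSP90AA1 differed by less than their SDs added together in each line, and so did HSP90AA1 and HSP90AB1 in CMM2, but not in CMM12. Within libraries, HSPA8 stood above HSP90AA1 in all but the CMM12 control (2888 against 3096 TPM). HSP90AA1 stood above HSP90AB1 in every library. By mean TPM over all 6 libraries DNAJA1, a main J partner of HSPA8, came next, with 786 ± 80.9 TPM in CMM12 and 844 ± 116 TPM in CMM2. In CMM12 alone, the TRiC/CCT subunits CCT5 (963 ± 119 TPM) and CCT8 (848 ± 227 TPM) had higher means than DNAJA1, by less than the SDs added together. All members together took 1.63% to 1.70% of the TPM of a CMM12 library and 1.08% to 1.44% of a CMM2 library, and the first 3 genes alone made up 39.3% to 48.7% of that share.

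In CMM12 the KO libraries were set against their control to ask which chaperones moved with podoplanin loss. No member passed the adjusted p of 0.05 in edgeR's quasi-likelihood test, where 0.00815% of all genes did; 2 members (DNAJA4 and CCT6A) had an unadjusted p under 0.05, against 5.99% of all genes. DESeq2 called 1 member, DNAJA4, against 0.367% of all genes. PDPN, the targeted gene, did not pass in edgeR either (adjusted p 0.307), though DESeq2 called it (adjusted p 9.8e-06). A member that did not pass in edgeR may therefore still have changed. Both KO libraries lay above the control for 23 of the 62 tested members (37.1%), against 35.6% of all genes, and both lay below it for 19 (30.6%), against 34.2%. Singly, 35 members stood above the control in KO 1, against 50.3% of all genes, and 31 in KO 2, against 50.7%. The members' median log2 fold change was 0.06, against 0.02 over all genes. It was 0.0076 without KO 1 and −0.0018 by limma on log2(TPM + 1).

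In CMM2 no member passed in edgeR, where 0% of all genes did, and none in DESeq2, where 0.0489% did. PDPN did not pass in CMM2 by either tool (adjusted p 0.228 by DESeq2). The 2 members with an unadjusted edgeR p under 0.05, HSPB6 and HSPA12A, compare with 1.90% of all genes. HSPA12A had 6 counts in the CMM2 control and no count in CMM2 KO, so its p rests on values at the floor of detection. Both KO libraries lay below the control for 32 of the 62 members (51.6%), against 30.9% of all genes, and both lay above it for 8 (12.9%), against 30.1%. The members' median log2 fold change was −0.14, against 0.00 over all genes. The lower side did not come from 1 library alone: 39 members stood below the control in KO 1, against 47.5% of all genes, and 45 in KO 2, against 48.9%. Without KO 2 the median was −0.12. All these comparisons use the single CMM2 control, so they are not independent of each other.

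Set side by side, 14 members (22.6%) had both CMM12 KO libraries above and both CMM2 KO libraries below their controls, against 11.0% of all genes. The 14 include HSPA12A, whose CMM2 values lie at the floor of detection. The opposite arrangement held for 4 members (6.45%), against 10.2%. These were DNAJC10, DNAJB2, DNAJB14 and DNAJC18. DNAJB2 had a log2 fold change of −0.43 (SE 0.26) in CMM12 and 0.12 (SE 0.26) in CMM2. For DNAJB14 the values were −0.36 (SE 0.34) and 0.20 (SE 0.35), and for DNAJC18 −0.32 (SE 0.39) and 0.28 (SE 0.40). All 4 KO libraries lay below their controls for 10 members (16.1%), against 10.6%, and above them for 2 (3.23%), against 10.5%. In the test of the difference between the KO effects, edgeR called no member, where 0% of all genes were called. An unadjusted p under 0.05 was held by 3 members (HSPH1, HSPA12A and DNAJA4), against 3.84% of all genes. HSPA12A had enough counts to be tested only through CMM12, so its p adds no support for a difference. DESeq2 called DNAJA4 alone among the members, against 0.179% of all genes. In the model of KO against control across the lines, no member was called by edgeR (0% of all genes) or DESeq2 (0.0733%). There 3 members (HSPB6, DNAJA3 and CCT6A) had an unadjusted edgeR p under 0.05, against 4.03%. PDPN was not called across lines by edgeR (adjusted p 0.288), but was by DESeq2 (adjusted p 4.2e-08).

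**Figure D1:**
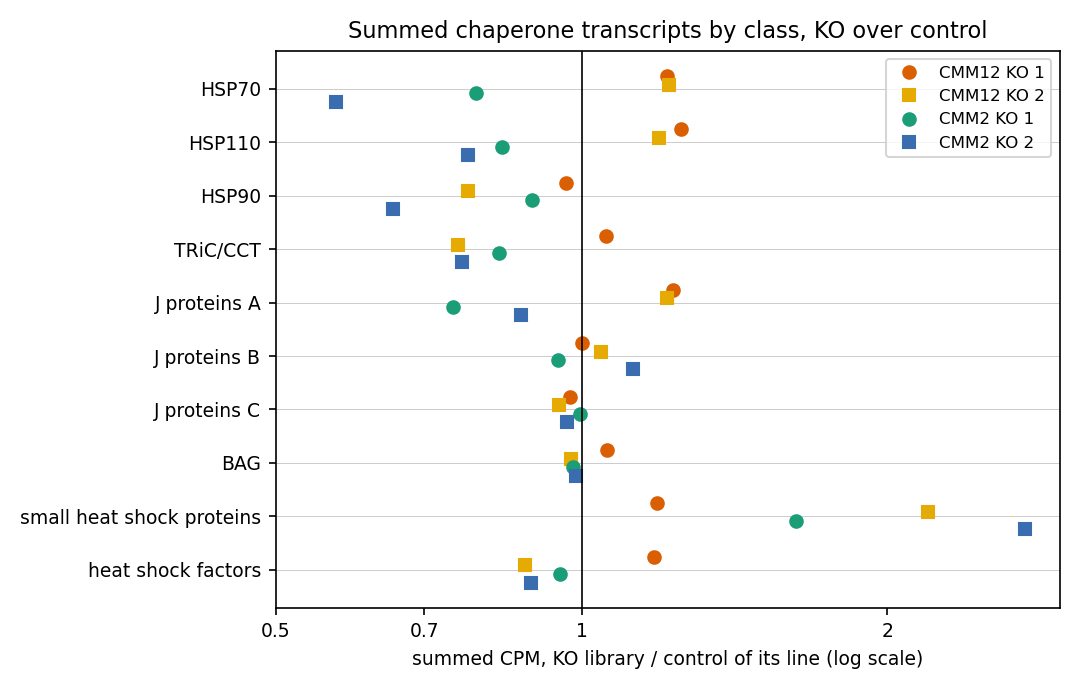
Summed CPM of each chaperone class in every KO library divided by that of the control of its line, on a log scale; circles are KO 1, squares KO 2, and the line at 1 marks the control. HSP70, HSP110 and class A J proteins sit right of the line in CMM12 and left of it in CMM2, and small heat shock proteins sit right of it in all 4 KO libraries.

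The HSP70 and HSP110 sums lay above the control in CMM12 KO and below it in CMM2 KO, like that of class A J proteins. The class A sum stood at 1.23 and 1.21 of the control in CMM12 KO and at 0.748 and 0.871 in CMM2 KO. DNAJA1 made up most of it (744 of 811 CPM in the CMM12 control), and DNAJA3 went the other way in CMM12. Summed over 8 HSP70 genes, CMM12 had 7363 CPM in KO 1 and 7394 in KO 2 against 6063 in the control, while CMM2 had 5406 in KO 1 and 3935 in KO 2 against 6871 in the control. Relative to its control the class thus stood at 1.21 and 1.22 in CMM12 KO 1 and KO 2, and at 0.787 and 0.573 in CMM2 KO 1 and KO 2. The 3 HSP110 genes summed to 1876 and 1785 CPM in CMM12 KO against 1497 in the control, and to 1000 and 926 CPM in CMM2 KO against 1198 in the control. KO and control did not overlap in these sums, and each line rests on 1 control. Such a position is common for single genes: 35.6% of all genes had both KO libraries above the control in CMM12. In CMM2, 30.9% had both below it.

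HSPA8 carried most of the HSP70 sum. It had 6074 and 6196 CPM in CMM12 KO 1 and KO 2 against 4949 CPM in the control, and 4693 and 3267 CPM in CMM2 KO 1 and KO 2 against 6050 CPM in the control. The KO libraries of CMM12 lay above and those of CMM2 below their control, by a log2 fold change of 0.31 (SE 0.30) in CMM12 and −0.60 (SE 0.29) in CMM2. The difference between these effects was 0.91 (SE 0.41), with an unadjusted edgeR p of 0.066, so neither the effects nor their difference passed. HSPA8 has near-identical copies in mammalian genomes, so its counts may share reads with them.

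HSPH1, the stress-induced HSP110 that acts as an exchange factor for HSP70, had 512 and 486 CPM in CMM12 KO 1 and KO 2 against 407 CPM in the control. In CMM2 it had 355 and 331 CPM in KO 1 and KO 2 against 503 CPM in the control. The log2 fold change was 0.29 (SE 0.24) in CMM12 and −0.55 (SE 0.23) in CMM2, with an unadjusted edgeR p of 0.259 and 0.052. The effects differed by 0.84 (SE 0.33) with an unadjusted edgeR p of 0.042, and the adjusted p over all genes was 1.00. HSPA4 and HSPA4L, the other HSP110 proteins, lay on the same sides of their controls, with log2 fold changes of 0.32 (SE 0.24) and 0.08 (SE 0.23) in CMM12 and −0.15 (SE 0.24) and −0.32 (SE 0.23) in CMM2.

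**Figure D2:**
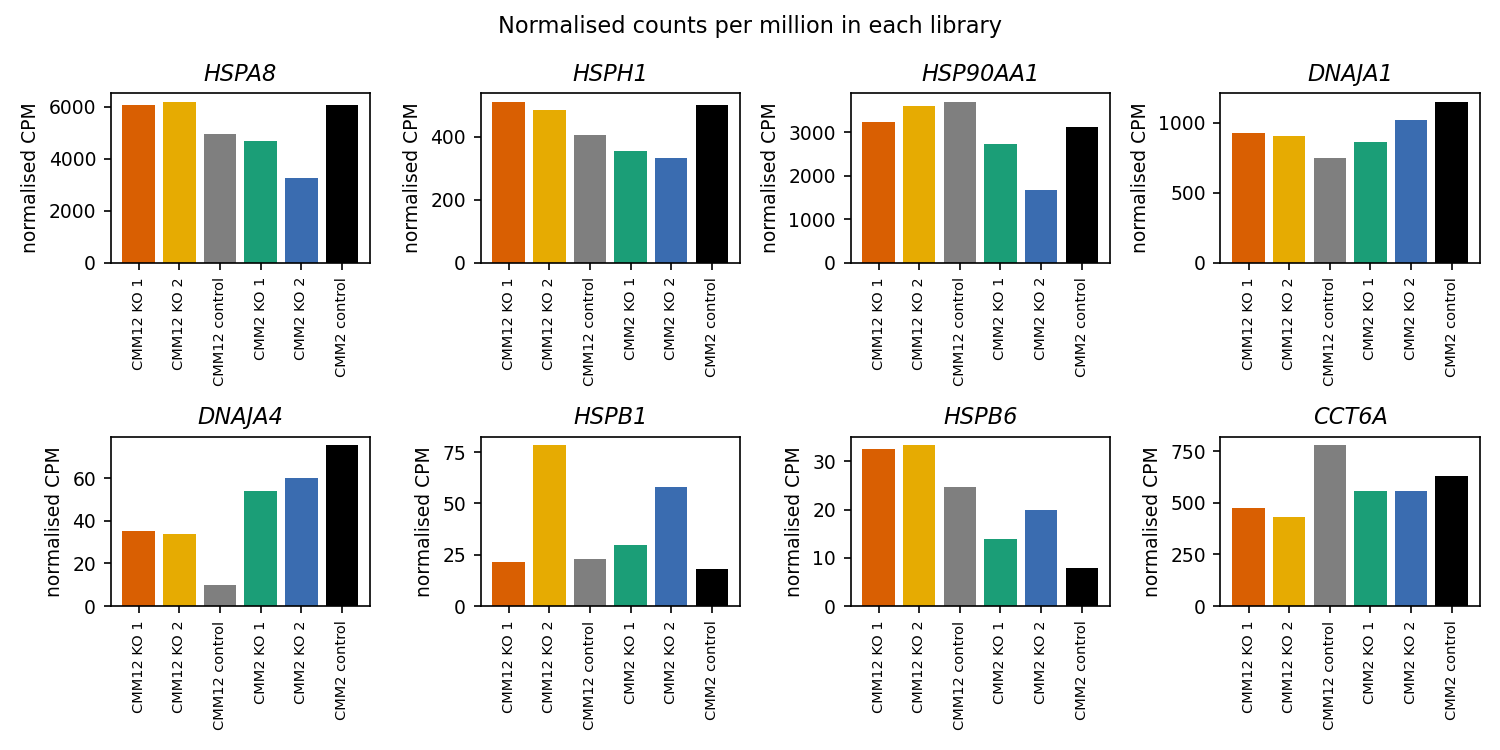
TMM-scaled CPM of 8 members in each library, as bars from 0, with the KO libraries left of the control of their line. HSPA8, HSPH1 and DNAJA1 are above the control in CMM12 KO and below it in CMM2 KO, DNAJA4 is lowest in the CMM12 control (10.01 CPM), and HSPB1 is highest in KO 2 of each line.

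Other HSP70 genes differed in pattern. HSPA9, the mitochondrial HSP70, had 1098 and 1009 CPM in CMM12 KO against 899 in the control, and 558 and 466 CPM in CMM2 KO against 660 in the control, again on opposite sides. HSPA13 of the ER had 97.3 and 64.1 CPM in CMM12 KO against 100.02 in the control, and 72.5 and 117 CPM in CMM2 KO against 74.6 in the control, with the CMM2 KO libraries on either side of it. HSPA14, which works at the ribosome, stayed at 45.1 to 51.3 CPM in CMM12 and 59.2 to 68.2 CPM in CMM2. HSPA12A, a distant relative of HSP70, had 203 and 157 counts in CMM12 KO against 105 in the control, and no count in CMM2 KO against 6 in the control, so its CMM2 values lie at the floor of detection and no fold is given for them.

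Among class A J proteins, the members that deliver clients to HSP70, the KO libraries of CMM2 lay below the control for all 3, against 30.9% of all genes. DNAJA1 had 924 and 906 CPM in CMM12 KO against 744 in the control, and 862 and 1018 CPM in CMM2 KO against 1150 in the control. Its KO libraries lay above the control in CMM12 and below it in CMM2, as did those of 11.0% of all genes. The log2 fold changes were 0.30 (SE 0.25) in CMM12 and −0.29 (SE 0.25) in CMM2. DNAJA3, the mitochondrial member, lay below the control in all 4 KO libraries, with 37.6 and 42.9 CPM in CMM12 KO against 57.4 in the control, and 57.0 and 54.6 CPM in CMM2 KO against 75.2 in the control. Across lines its log2 fold change was −0.47 (SE 0.16), with an unadjusted edgeR p of 0.020 and an adjusted p of 0.987.

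DNAJA4, a relative of DNAJA1, was the member that moved most in CMM12. It had 35.2 and 33.8 CPM in CMM12 KO 1 and KO 2 (386 and 345 counts) against 10.01 CPM in the control (116 counts), and 54.2 and 60.1 CPM in CMM2 KO 1 and KO 2 against 75.5 CPM in the control. The CMM12 control was the lowest of all 6 libraries. DESeq2 called DNAJA4 higher in CMM12 KO, with an adjusted p of 9.9e-04. The edgeR estimate on the log2 scale was 1.78 (SE 0.29), the unadjusted p 6.1e-04 and the adjusted p 0.445, so it did not pass there. In CMM2 the log2 fold change was −0.40 (SE 0.25). The difference between the KO effects was 2.19 (SE 0.38 by edgeR), with an adjusted p of 0.0142 by DESeq2 and of 1.00 by edgeR, where the unadjusted p was 8.6e-04.

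Class B and C J proteins, which send HSP70 to particular places and clients, were divided. Of 8 tested DNAJB genes, both KO libraries lay above the control for 3 and below for 4 in CMM12, against 35.6% and 34.2% of all genes. In CMM2 both lay above for 2 and below for 2, against 30.1% and 30.9%. The 4 include DNAJB13, with 8 and 1 counts in CMM12 KO 1 and KO 2 against 12 in the control. DNAJB1, the J protein that works with HSP70 and HSP110 on aggregates and a known target of HSF1, had 107 and 118 CPM in CMM12 KO against 103 in the control, and 64.5 and 74.5 CPM in CMM2 KO against 73.4 in the control. DNAJB12, of the ER membrane, had 28.7 and 19.1 CPM in CMM12 KO against 14.2 in the control, and 26.8 and 25.9 CPM in CMM2 KO against 30.9 in the control, a log2 fold change of 0.76 (SE 0.37) in CMM12 and −0.23 (SE 0.35) in CMM2.

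Of 20 tested DNAJC genes, both KO libraries lay above the control for 5 and below for 6 in CMM12, against 35.6% and 34.2% of all genes. In CMM2 both lay above for 3 and below for 6, against 30.1% and 30.9%. DNAJC9, a histone chaperone, had 62.1 and 42.6 CPM in CMM12 KO against 34.1 in the control, and 58.3 and 48.9 CPM in CMM2 KO against 71.6 in the control, so it too lay on opposite sides. DNAJC10, a disulfide reductase of the ER, had 241 and 359 CPM in CMM12 KO against 401 in the control, and 461 and 481 CPM in CMM2 KO against 451 in the control. DNAJC22 had 6 counts in CMM12 KO 1 and 92 in KO 2 against 97 in the control, and 183 and 274 counts in CMM2 KO 1 and KO 2 against 111 in the control. None of these KO effects passed in edgeR or DESeq2.

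**Figure D3:**
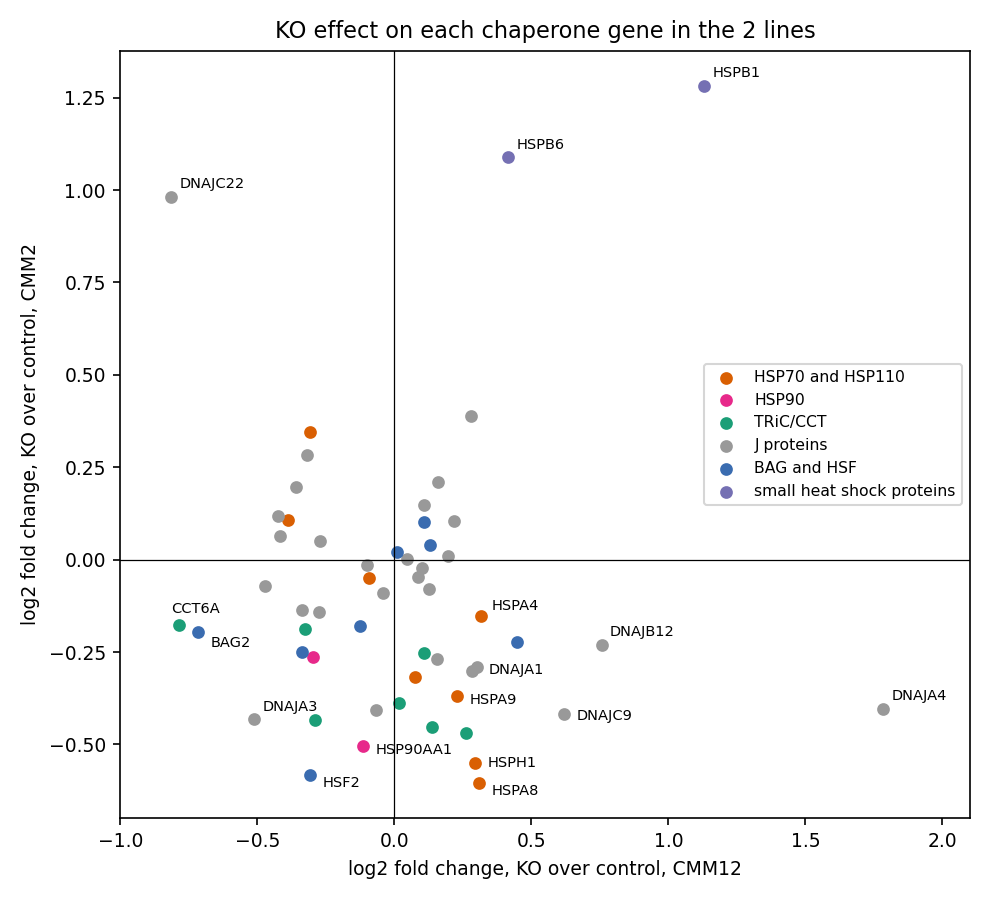
Log2 fold change of KO over control in CMM12 (horizontal) and CMM2 (vertical), edgeR, for 55 members with a mean of at least 5 CPM, coloured by class; HSPA12A and HSPB8, which have counts of 0 in CMM2 KO, are left out. HSPA8 and HSPH1 lie at the lower right (0.31 and 0.29 in CMM12, −0.60 and −0.55 in CMM2), DNAJA4 at the far right (1.78) and HSPB1 and HSPB6 at the upper right.

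HSP90 and TRiC/CCT, the client-specific machines, stood lower in CMM2 KO and were mixed in CMM12. HSP90AA1 had 3242 and 3595 CPM in CMM12 KO 1 and KO 2 against 3701 CPM in the control, and 2734 and 1678 CPM in CMM2 KO 1 and KO 2 against 3126 CPM in the control. All 4 KO libraries were below their control, CMM2 KO 2 the furthest, and the log2 fold change was −0.11 (SE 0.34) in CMM12 and −0.50 (SE 0.33) in CMM2. HSP90AB1 had 3971 and 2180 CPM in CMM12 KO 1 and KO 2 against 3776 CPM in the control, and 3180 and 2634 CPM in CMM2 KO 1 and KO 2 against 3492 CPM in the control. Its CMM12 KO libraries lay on either side of the control. The HSP90 genes resemble each other and have copies elsewhere in mammalian genomes, so reads may be shared.

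All 7 tested TRiC/CCT subunits lay below the control in both CMM2 KO libraries, against 30.9% of all genes, with a median log2 fold change of −0.39. They share 1 CMM2 control, so the 7 are not independent of each other. In CMM12 1 lay above (35.6% of all genes), 2 below (34.2%) and 4 on either side, with a median of 0.02. Over all genes the medians were 0.02 in CMM12 and 0.00 in CMM2. The subunits summed to 5827 and 4158 CPM in CMM12 KO 1 and KO 2 against 5509 CPM in the control, and to 4330 and 3982 CPM in CMM2 KO 1 and KO 2 against 5228 CPM in the control. CMM12 KO 1 and KO 2 thus differed more from each other than KO 1 did from the control. CMM2 fold changes ran from −0.47 (CCT2) to −0.18 (CCT6A), and no subunit had an unadjusted edgeR p under 0.05 there.

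CCT6A departed from the other subunits in CMM12. It had 475 and 429 CPM in CMM12 KO 1 and KO 2 against 779 CPM in the control, and 557 and 558 CPM in CMM2 KO 1 and KO 2 against 631 CPM in the control. It lay below the control in all 4 KO libraries. The log2 fold change was −0.79 (SE 0.23) in CMM12, with an unadjusted edgeR p of 0.013 and an adjusted p of 0.738, and −0.49 (SE 0.19) across lines, with an unadjusted p of 0.031 and an adjusted p of 0.987. CCT2 lay on opposite sides, with 512 and 394 CPM in CMM12 KO against 379 in the control, and 571 and 481 CPM in CMM2 KO against 729 in the control. TCP1 had 732 and 625 CPM in CMM12 KO against 829 in the control, and 678 and 514 CPM in CMM2 KO against 805 in the control.

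The complex holds its subunits in equal number, but their levels per transcript length were unequal. Across the 7 subunits the coefficient of variation of TPM was 49.3% to 57.7% in CMM12 libraries and 25.7% to 39.5% in CMM2 libraries, without overlap. CCT4 was the lowest subunit in every library (226 to 245 TPM in CMM12 and 263 to 342 TPM in CMM2). The highest was CCT5 in both CMM12 KO libraries, at 1091 TPM in KO 1 and 856 TPM in KO 2, and CCT8 in the CMM12 control (1002 TPM) and in all CMM2 libraries (585 to 716 TPM).

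**Figure D4:**
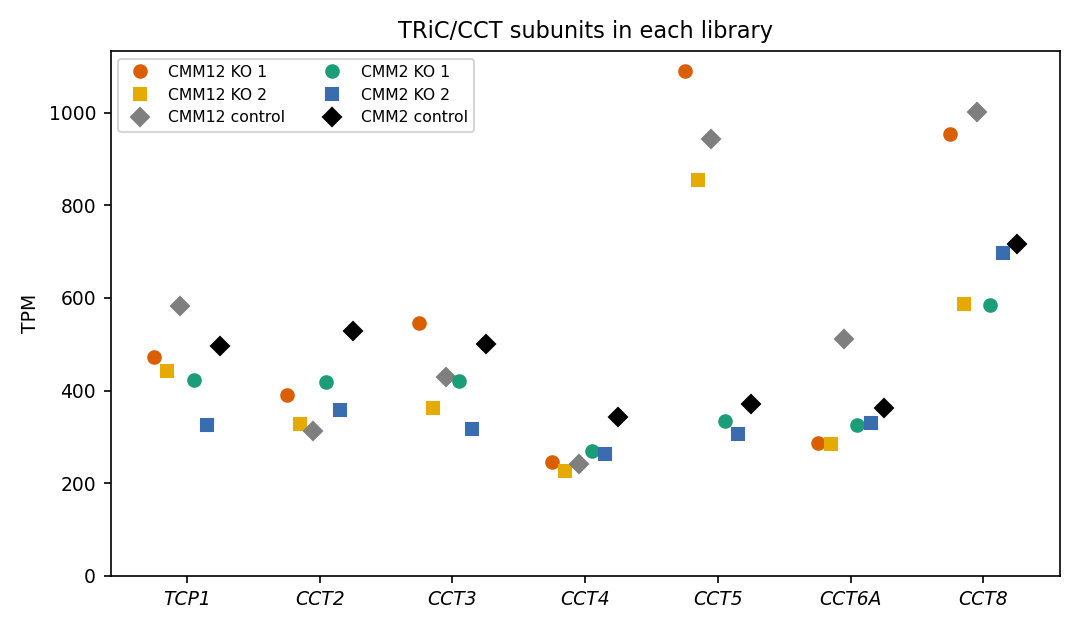
TPM of 7 TRiC/CCT subunits, 1 point per library, with CMM12 libraries left of CMM2 libraries at each subunit. CCT5 is higher in all CMM12 libraries (856 to 1091 TPM) than in any CMM2 library, and CCT4 is the lowest subunit in each library.

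Of small heat shock proteins 4 were tested (HSPB1, HSPB6, HSPB8 and HSPB11). None lay below the control in both KO libraries of a line, against 34.2% of all genes in CMM12 and 30.9% in CMM2. Both KO libraries lay above it for 3 in CMM12 (35.6% of all genes) and 2 in CMM2 (30.1%). HSPB8, without counts in CMM2, could lie on neither side there. The class summed to 69.6 and 129 CPM in CMM12 KO 1 and KO 2 against 58.7 CPM in the control. In CMM2 it summed to 48.3 and 81.2 CPM in KO 1 and KO 2 against 29.7 CPM in the control. HSPB6, also called Hsp20, had 32.7 and 33.4 CPM in CMM12 KO 1 and KO 2 against 24.8 CPM in the control, and 13.8 and 20.0 CPM in CMM2 KO 1 and KO 2 against 7.93 CPM in the control. It was above the control in all 4 KO libraries. The log2 fold change was 0.41 (SE 0.35) in CMM12 and 1.09 (SE 0.37) in CMM2, and 0.73 (SE 0.27) across lines, with an unadjusted edgeR p of 0.028 and an adjusted p of 0.987.

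HSPB1, or Hsp27, which also binds actin filaments, differed by KO number. It had 21.7 CPM in CMM12 KO 1 and 78.5 CPM in KO 2 against 22.9 CPM in the control, and 30.0 CPM in CMM2 KO 1 and 57.9 CPM in KO 2 against 18.0 CPM in the control. KO 2 was the highest library of each line, and CMM12 KO 1 lay below its control. The log2 fold change of KO against control was 1.13 (SE 0.78) in CMM12, but −0.08 without KO 2, and 1.28 (SE 0.79) in CMM2. In a comparison of KO 2 with KO 1 over the lines, added after the data were seen, HSPB1 had a log2 fold change of 1.38 (SE 0.30), an unadjusted edgeR p of 0.0026 and an adjusted p of 0.943, and no gene was called (0%). HSPB8, the partner of BAG3 in selective autophagy, had 109 and 112 counts in CMM12 KO against 75 in the control, and no count in any CMM2 library.

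No BAG protein or heat shock factor passed in a KO comparison, by edgeR or DESeq2. BAG3, which is induced by HSF1, had 63.5 and 55.6 CPM in CMM12 KO against 43.7 in the control, and 74.1 and 79.2 CPM in CMM2 KO against 89.5 in the control, on opposite sides. BAG2, an inhibitor of the ubiquitin ligase CHIP, had 18.4 and 13.8 CPM in CMM12 KO against 26.5 in the control, and 6.03 and 6.81 CPM in CMM2 KO against 7.35 in the control. BAG1, the founding member that binds BCL2, had 210 and 237 CPM in CMM12 KO against 207 in the control, and 179 and 205 CPM in CMM2 KO against 178 in the control. BAG4, BAG5 and BAG6 had log2 fold changes of −0.34, −0.12 and 0.01 in CMM12 and −0.25, −0.18 and 0.02 in CMM2, all with an SE of 0.26 to 0.36.

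HSF1, the master regulator of the heat shock response, had 174 and 130 CPM in CMM12 KO 1 and KO 2 against 139 CPM in the control, and 80.3 and 74.9 CPM in CMM2 KO 1 and KO 2 against 75.5 CPM in the control. KO and control overlapped in each line. HSF2, a second factor of the family active in development, had 39.0 and 29.2 CPM in CMM12 KO against 42.2 in the control, and 21.7 and 20.5 CPM in CMM2 KO against 31.6 in the control. It was below the control in all 4 KO libraries, with a log2 fold change of −0.31 (SE 0.31) in CMM12 and −0.58 (SE 0.31) in CMM2.

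CMM12 was then set against CMM2 over 3 libraries each, with genotype as a term. edgeR called 15 of 62 members (24.2%), against 25.8% of all genes. Of these, 13 were higher in CMM12, against 14.6% of all genes, and 2 were lower, against 11.2%. The 13 include HSPA12A and HSPB8, which passed the low-count filter only through CMM12. At an unadjusted p under 0.05 there were 24 members (38.7%), against 40.0%. DESeq2 called 19 (30.6%), against 32.2% of all genes, with 14 higher (17.7% of all genes) and 5 lower (14.5%). Every CMM12 library lay above every CMM2 library for 20 members (32.3%), against 24.6% of all genes, and below for 10 (16.1%), against 21.5%. The 20 include HSPA12A, HSPB8 and DNAJB13, which were tested only through CMM12, so their side was fixed in advance. These genes also enter the median over members. The share of members called was thus near that of all genes, and the median log2 fold change was 0.18, against 0.04 over all genes.

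**Figure D5:**
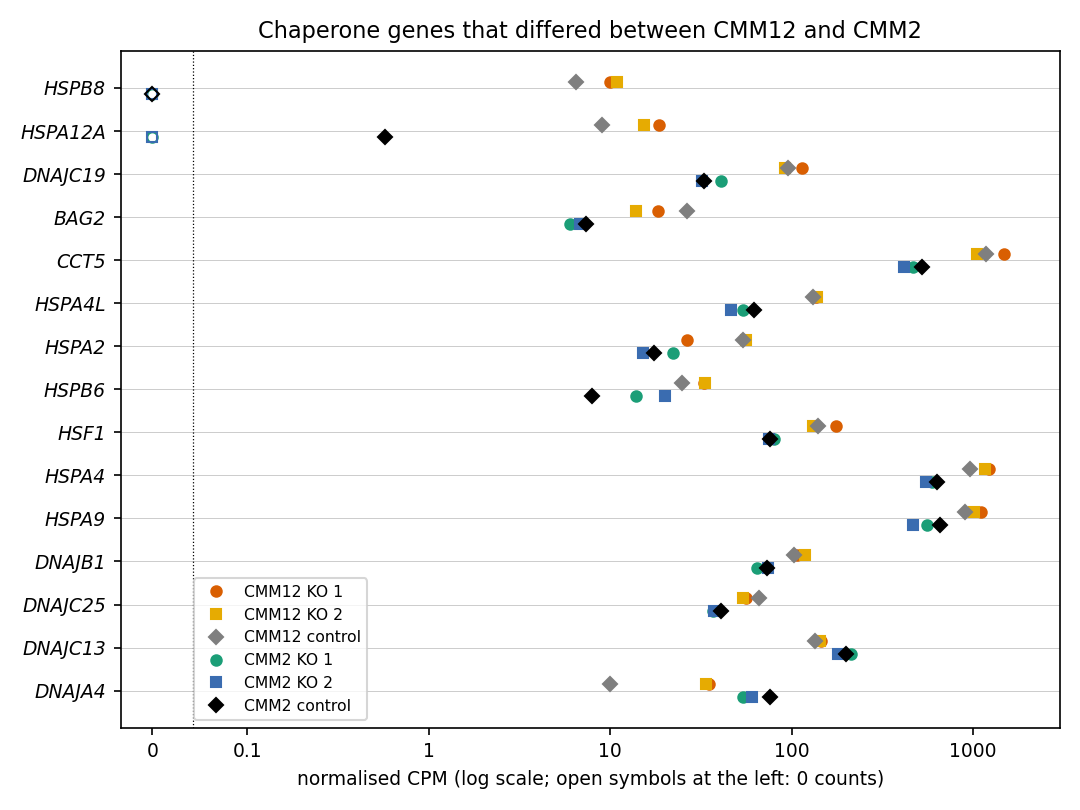
TMM-scaled CPM of the 15 members that edgeR called between the lines, in each library on a log scale, with CMM12 drawn above CMM2 in each row and open symbols for 0 counts. The 13 upper genes are higher in CMM12, HSPB8 with 0 counts in CMM2, and DNAJC13 and DNAJA4 are lower in CMM12.

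HSPB8 had 296 counts over the CMM12 libraries and 0 over the CMM2 libraries, which is at least 32.9-fold higher in CMM12 when CMM2 is set at a floor of 3 counts per library, on the TMM scale. HSPA12A, with 9.06 to 18.5 CPM in CMM12 and at most 6 counts in a CMM2 library, was also higher in CMM12 (adjusted p = 0.0048, edgeR). HSPA12A, HSPB8 and DNAJB13 passed the low-count filter only through CMM12, so a difference in that direction was built into their being tested. DNAJB13 had 21 counts in CMM12 and 0 in CMM2 and was not called.

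Within HSP110, HSPA4L had 137 and 139 CPM in CMM12 KO and 131 in its control, against 53.6 and 46.2 CPM in CMM2 KO and 62.2 in its control, a log2 fold change of 1.33 (SE 0.16; adjusted p = 0.0023, edgeR). HSPA4 had 1227, 1161 and 960 CPM in CMM12 KO 1, KO 2 and control, against 591, 549 and 633 CPM in CMM2 KO 1, KO 2 and control, a log2 fold change of 0.91 (SE 0.17; adjusted p = 0.0086, edgeR). The lines did not overlap for either gene. HSPH1, the third of the class, did overlap between the lines, with a log2 fold change of 0.26 (SE 0.20) and an adjusted edgeR p of 0.383.

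Of HSPA9, DNAJA3, DNAJC11 and DNAJC19, which act in mitochondria, DNAJC19 and HSPA9 were higher in CMM12 by edgeR. DNAJC19, which works at the inner membrane import motor, had 114, 92.1 and 95.7 CPM in CMM12 KO 1, KO 2 and control, against 40.6, 32.2 and 32.9 CPM in CMM2 KO 1, KO 2 and control. Its log2 fold change was 1.52 (SE 0.18; adjusted p = 0.0019, edgeR). HSPA9 differed by 0.84 (SE 0.19; adjusted p = 0.016, edgeR). DNAJA3 and DNAJC11 were not called by edgeR, with log2 fold changes of −0.44 (SE 0.15) and 0.29 (SE 0.18). DESeq2 called DNAJA3 lower in CMM12 (adjusted p = 0.034).

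CCT5 alone among the TRiC/CCT subunits was called by edgeR. It had 1470, 1054 and 1172 CPM in CMM12 KO 1, KO 2 and control, against 463, 417 and 525 CPM in CMM2 KO 1, KO 2 and control. The log2 fold change was 1.40 (SE 0.19; adjusted p = 0.0032, edgeR), and the other subunits ran from −0.46 (CCT2) to 0.22 (CCT8). DESeq2 also called CCT4, lower in CMM12.

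BAG2 was higher in CMM12 by 1.502 (SE 0.25; adjusted p = 0.0065, edgeR), and HSF1 by 0.94 (SE 0.17; adjusted p = 0.0076, edgeR), with every CMM12 library above every CMM2 library. HSPB6 was higher by 1.19 (SE 0.25; adjusted p = 0.014, edgeR). HSPA2, an HSP70 best known from male germ cells, had 26.6, 56.3 and 54.2 CPM in CMM12 KO 1, KO 2 and control, against 22.3, 15.1 and 17.4 CPM in CMM2 KO 1, KO 2 and control, and was higher by 1.31 (SE 0.32; adjusted p = 0.024, edgeR). DNAJB1 and DNAJC25 were higher by 0.63 and 0.61. DNAJC13, which acts on endosomes, was lower in CMM12 (log2 −0.49, SE 0.15; adjusted p = 0.047, edgeR), with 144, 142 and 134 CPM in CMM12 KO 1, KO 2 and control against 212, 180 and 199 CPM in CMM2 KO 1, KO 2 and control. DNAJA4 was lower in CMM12 (log2 −1.41, SE 0.43; adjusted p = 0.047, edgeR).

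With any 1 of the 6 libraries left out, BAG2, CCT5, DNAJC19, HSF1, HSPA12A, HSPA4, HSPA4L and HSPB8 stayed called by edgeR. HSPA12A and HSPB8 passed the low-count filter only through CMM12, so keeping their call adds nothing on its direction. Leaving out either control gives the comparison of the KO libraries alone. DNAJA4 lost its call with any library left out, and HSPA2, HSPA9, HSPB6, DNAJB1, DNAJC13 and DNAJC25 lost theirs without at least 1 of the libraries.

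Between the controls alone, 2 members were called by edgeR, DNAJA4 and HSPB8, against 1.38% of all genes, and between the KO libraries alone 9 were (14.5%), against 13.8%. HSPA8 and HSPH1 had log2 values of −0.29 and −0.31 between the controls, against 0.32 and 0.26 over all libraries, so CMM12 stood below CMM2 in the controls and above it in the KO libraries. No value for these genes passed in either comparison.

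As a description of how members varied together, log2(TPM + 1) of each of the 54 other members with a mean of at least 10 CPM was correlated with that of HSPH1 over the 6 libraries, which share lines and controls. HSPA8 was most like HSPH1 (r = 0.94), followed by HSPA9 (0.87), DNAJC7, an HSP70 and HSP90 co-chaperone (0.87), DNAJC11 (0.84), HSP90AA1 (0.81), HSPA4 (0.80) and HSPA4L (0.80). The least like were DNAJC22 (−0.68) and DNAJC13 (−0.60).

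Of the 12 members not tested, HSPA12B, DNAJB8, DNAJC5B, DNAJC5G, HSPB3 and CCT8L2 had no count in any library. DNAJB5, DNAJB7, DNAJC12, HSPB2, HSPB7 and CCT6B had 0 to 9 counts in a library. At the depth of these libraries, a count of 0 allows up to 0.259 to 0.294 CPM, counting error only.

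Genes of the pathway outside the symbols were looked up in fixed lists of co-chaperones, prefoldin and tubulin folding, other HSF targets and chaperones of the ER and mitochondria. Of 55 listed genes 51 were tested, and none was called in any KO comparison by edgeR or DESeq2, against the shares of all genes given above. Of 13 tested HSP90 co-chaperones, both KO libraries lay below the control for 5 in CMM12 and for 10 in CMM2, against 34.2% and 30.9% of all genes. FKBP4, a co-chaperone of steroid receptors, had 488 and 584 CPM in CMM12 KO against 585 in the control, and 701 and 502 CPM in CMM2 KO against 859 in the control. STIP1, which links HSP70 to HSP90, had 510 and 449 CPM in CMM12 KO against 462 in the control, and 542 and 406 CPM in CMM2 KO against 642 in the control.

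Between the lines 5 of the 51 genes were higher and 10 lower in CMM12 by edgeR, against 14.6% and 11.2% of all genes. PFDN2, a subunit of prefoldin, which hands actin and tubulin to TRiC, had 120, 107 and 112 CPM in CMM12 KO 1, KO 2 and control, against 33.7, 37.7 and 45.5 CPM in CMM2 KO 1, KO 2 and control (log2 1.54, SE 0.16; adjusted p = 0.002, edgeR). SUGT1, an HSP90 co-chaperone of kinetochores and immune receptors, was lower in CMM12 (log2 −1.44, SE 0.16; adjusted p = 0.002, edgeR). CRYAB, a small heat shock protein whose symbol falls outside the rule, had 5.02 and 9.88 CPM in CMM12 KO against 1.81 in the control, and 0.961 and 0.757 CPM in CMM2 KO against 0.382 in the control, above the control in all 4 KO libraries but near the floor in CMM2. Its KO effect across lines had an unadjusted edgeR p of 0.019 and was not called.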

How the data were processed

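RNA from 6 canine melanoma libraries was measured by RNA sequencing; RNA was taken with an RNeasy kit and libraries made from 1 ug with a NEBNext Ultra kit, per the labels' protocols. The authors deposited expected counts for each gene without scaling across libraries, per the file headers. TPM values, scaled within each library for transcript length, were deposited beside them by the authors, per the file headers. The submitters' processing notes name the aligner STAR 2.7.3a, the quantifier RSEM 1.3.3 and CanFam3.1 as genome build. Whether counting used strand is not given in the sources, so a gene and its antisense partner cannot be told apart.

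Expected counts were rounded, which changed 3.22% to 3.63% of values in a library. Library totals were 9732927 to 11807835. Libraries differed by more than sampling noise in every pair (chi-square of at least 17.3 for each degree of freedom). edgeR 4.0.16 in R 4.3.3 (TMM, filterByExpr on the 4 groups, glmQLFit, glmQLFTest, Benjamini-Hochberg over 12270 genes, threshold 0.05) was the main test. KO effects in a line and their difference came from 4 group means, leaving 2 residual degrees of freedom, and a lone control is assumed to vary like the KO pairs; the KO effect across lines and the line contrast came from additive terms (3 residual degrees of freedom). Standard errors were derived from the quasi-likelihood F. Genes were compared between libraries in TMM-scaled CPM and with each other in TPM, since on the TPM scale the median of all genes in CMM12 KO 1 moved by −0.11 (log2) against its control. The edgeR and DESeq2 fits, and no other step, were tested on simulated data.

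Alternatives were DESeq2 1.42.0, no low-count filter, median-of-ratios factors, a bias-adjusted fit, limma 3.58.1 on TPM in log2 form with 1 or 0.1 added (low genes then show smaller changes), a replicate block and leaving out each library. Summing rows that share a symbol changes nothing, since no member shares its symbol. Named genes were the small classes (HSF, HSP90, HSPH1, BAG, TRiC/CCT), textbook targets of heat shock factor, and, per comparison, up to 6 members in each direction with the largest change among those with a mean of at least 5 CPM and all libraries on 1 side, up to 10 in each direction by adjusted p between lines, and every member called. HSPA1L, CCT3, DNAJB4 and DNAJC4 met this choice, but their values are not given above. HSPA13, HSPA14, DNAJC11, the least like HSPH1, and the pathway genes named were chosen after their values were seen. Members and lists were chosen with earlier results of these data known. Promoter and protein sequences were not used here.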

Additional observations from a re-analysis of the deposited data

Results flagged for a closer look

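DNAJA4 had a KO effect that differed between the lines by DESeq2's test of the difference, at 2.19 on the log2 scale (CMM12 minus CMM2; SE 0.51, adjusted p = 0.0142), while edgeR gave an adjusted p of 1.00. It stood at 35.2 and 33.8 CPM in CMM12 KO against 10.01 CPM in the control, and at 54.2 and 60.1 CPM in CMM2 KO against 75.5 CPM in the control. Each line has 1 control library.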

How the results depend on the processing

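No member was called in a KO comparison by edgeR under any normalization, filter or form of the fit tried, by limma, or with any 1 library left out; DESeq2 called 1, DNAJA4, in CMM12 and 1, DNAJA4, in the difference of the KO effects. The median log2 change of the members was 0.06 in CMM12, but −0.0018 and −0.0021 by limma on log2(TPM + 1) and log2(TPM + 0.1), and 0.0076 to 0.068 with libraries left out, lowest without CMM12 KO 1. In CMM2 it was −0.14, but −0.082 with no filter and −0.074 and −0.075 by limma, and −0.18 to −0.12 with libraries left out. For the difference it was 0.07, but −0.034 and −0.035 by limma, and 0.033 to 0.18 with libraries left out. Across lines it was −0.07, and −0.088 to −0.021 with a KO library left out. With a control left out, the KO term across lines rests on the other line alone. The median was then that of CMM2 (−0.14, without the CMM12 control) or of CMM12 (0.061, without the CMM2 control).

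Between lines the median was 0.18, but 0.27 and 0.27 by limma, and 0.10 to 0.19 with libraries left out. There 15 members were called, against 25.8% of all genes, and 9 between KO libraries, against 13.8%. With libraries left out 9 to 14 members were called, where 12.3% to 25.4% of all genes were. Without either control the line term rests on the KO libraries alone, so those fits repeat that comparison and called the same 9 members. Without CMM2 KO 1 or without CMM12 KO 2, 9 members were called. DNAJA4 and DNAJC13 also lost their call by limma and under the replicate block. The members above the control numbered 8 in CMM2 with both KO libraries and 15 to 21 with 1, those below in CMM12 19 and 27 to 31, and those above in CMM12 23 and 31 to 35.

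With libraries left out, HSPB1 in CMM12 ran from −0.075 (without CMM12 KO 2) to 1.78 and CCT4 across lines from −0.39 to 0.018 (without the CMM2 control), so their signs turned. Signs also turned between controls for HSPH1 (−0.31) and HSPA8 (−0.29). Without CMM12 KO 2, the HSPB1 value is that of KO 1 against the control. Without the CMM2 control, the CCT4 value across lines rests on CMM12 alone. HSPA8 and HSPH1 had KO libraries above the control in CMM12 and below it in CMM2. Why these libraries differed was not tested. Over all genes, deviations of the KO 1 libraries were hardly correlated between the lines (r = 0.055). Whether libraries of the same KO number were made or handled together is not said in the labels and was not tested. With a replicate block the medians were −0.08 across lines, 0.06 for the difference and 0.16 between lines, with 0, 0 and 13 members called.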
